A study of Mus musculus with 10 samples.

Results

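The genes described here carry the unfolded protein response and the integrated stress response, the programs with which a cell answers misfolded protein in the endoplasmic reticulum (ER) and other loads on protein synthesis. They are 10 genes listed by symbol, Ern1, Eif2ak3, Atf6, Xbp1, Atf4, Ddit3, Trib3, Chac1, Herpud1 and Sdf2l1, and all 10 were found among the 31510 genes of the deposited table. The table holds bulk RNA sequencing of the dissected hippocampus of 10 male APP/PS1 mice, which express transgenes of mutant human amyloid precursor protein and presenilin and deposit amyloid in the brain. Of these, 5 received AAV8-irisin-FLAG and 5 received AAV8-GFP by tail vein at 8 months of age, and tissue was taken 2 months later. Irisin is the secreted part of the muscle protein encoded by Fndc5, and the vector was meant to make the liver its source. Every mouse carried both the transgenes and a vector, so the comparison shows irisin against GFP on an amyloid background, and no mouse without amyloid or without vector was analysed here.

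The unfolded protein response starts at a trio of sensors in the ER membrane. Ern1 encodes IRE1alpha, a kinase and nuclease that splices the Xbp1 messenger into the form that yields an active transcription factor. Eif2ak3 encodes PERK, which phosphorylates the translation factor eIF2alpha, lowers protein synthesis and favours translation of Atf4. Atf6 encodes a membrane-bound factor that is cut in the Golgi to release its active part. Other kinases converge on eIF2alpha, and this shared route through Atf4 to Ddit3 (CHOP), Trib3 and Chac1 is the integrated stress response. Herpud1 and Sdf2l1 are outputs that serve degradation and folding of ER proteins. In neurons the eIF2alpha route is known for its part in memory formation, and its activity has been studied in amyloid models. Splicing of Xbp1, cleavage of Atf6 and translation of Atf4 leave the gene's messenger count largely untouched, so the values below are messenger abundance and not pathway activity.

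Some stress-responsive genes hold short DNA elements near their start sites, and the promoters of the listed genes in which a match was found are printed here. Promoters of 250 bases before to 50 bases after the start, 300 bases in all, came from RefSeq on GRCm38.p6 for 9 of the 10 genes. Both strands were searched for 5 motifs. The ER stress element ERSE was CCAAT and CCACG with any 9 bases between them, its shorter relative ERSE-II was ATTGG and CCACG with any 1 base between them, the core of the unfolded protein response element was TGACGTGG, the cyclic AMP response element was TGACGTCA, and the composite element of C/EBP and ATF factors was TGATGNAA. N stands for any base. Those that begin with TGACGT cannot match at the same bases, and no other match overlapped another. The promoter of Herpud1 held an ERSE-II and a C/EBP-ATF element, and those of Chac1 and Trib3 held a C/EBP-ATF element. None of the 9 held the ERSE, the unfolded protein response core or the cyclic AMP element as searched. Ddit3 and Sdf2l1, also output genes, held no match to any of the 5 motifs. Of 22 genes listed below as ATF4 and CHOP targets and with a promoter, 6 held a C/EBP-ATF element. Over all 32851 promoters of 300 bases, 0.0365% held an ERSE-II, 3.97% a C/EBP-ATF element, 0.119% an ERSE, 0.676% the unfolded protein response core and 1.79% the cyclic AMP element. In the sequences that follow, on the gene's own strand, capitals mark the matches. Herpud1 lies on the plus strand at chr8:94386179-94386478, Chac1 on the plus strand at chr2:119350992-119351291 and Trib3 on the minus strand at chr2:152344011-152344310.
Herpud1 promoter: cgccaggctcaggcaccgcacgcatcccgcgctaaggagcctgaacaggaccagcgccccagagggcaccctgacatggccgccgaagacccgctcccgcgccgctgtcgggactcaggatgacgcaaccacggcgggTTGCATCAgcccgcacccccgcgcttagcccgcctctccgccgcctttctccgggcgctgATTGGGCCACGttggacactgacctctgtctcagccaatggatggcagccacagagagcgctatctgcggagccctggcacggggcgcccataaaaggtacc
Chac1 promoter: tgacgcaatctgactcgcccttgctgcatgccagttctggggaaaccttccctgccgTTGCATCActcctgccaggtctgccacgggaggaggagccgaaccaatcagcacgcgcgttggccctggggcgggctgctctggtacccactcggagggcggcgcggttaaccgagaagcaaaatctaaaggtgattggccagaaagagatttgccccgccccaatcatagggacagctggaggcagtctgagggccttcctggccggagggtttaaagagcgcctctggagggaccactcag
Trib3 promoter: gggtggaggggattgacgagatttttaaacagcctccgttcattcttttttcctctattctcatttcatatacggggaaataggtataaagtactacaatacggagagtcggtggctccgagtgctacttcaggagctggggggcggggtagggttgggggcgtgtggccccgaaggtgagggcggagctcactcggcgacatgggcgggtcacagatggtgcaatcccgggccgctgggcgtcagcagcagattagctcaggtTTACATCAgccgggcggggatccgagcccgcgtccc
In Herpud1 the ERSE-II ran from 52 to 42 bases before the start and the C/EBP-ATF element from 112 to 105 bases before it. The same 8 letters, TTGCATCA, which are the reverse complement of the motif, stood 193 to 186 bases before the start of Chac1. Trib3 held TTACATCA 14 to 21 bases after its start. These starts are those of RefSeq, and the GENCODE gene positions given further below can begin elsewhere, as they do for Trib3.

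The ERSE itself was found in the promoters of 8 of the 20 ER chaperone and folding genes with a promoter in the table, and 4 of these sites are shown, that of Hspa5 (BiP) and those of Calr, Creld2 and Pdia6, which were among the genes closest to Sdf2l1 across mice. Hsp90b1 and Dnajc3, also described below, were among the others. Each is written in the motif's direction, with the fixed letters in capitals and the 9-base spacer in lower case. They lie at chr8:84847075-84847093 (plus strand) for Calr, chr15:88819520-88819538 (minus strand) for Creld2, chr2:34772025-34772043 (plus strand) for Hspa5 and chr12:17266491-17266509 (plus strand) for Pdia6.
Calr ERSE: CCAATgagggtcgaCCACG
Creld2 ERSE: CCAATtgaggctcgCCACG
Hspa5 ERSE: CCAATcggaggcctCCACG
Pdia6 ERSE: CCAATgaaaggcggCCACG

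The 10 libraries summed to between 35300000 and 36600000 normalised counts each, and 22434 to 23035 genes had a value above 0 in a library. Normalised counts are values that the authors derived from read counts with DESeq2, and the exact scaling is not known. Their precision is given as the spread between mice, since the depth behind each value is not known. AAV8-GFP mouse 1 stood apart. It held the highest value of the 10 mice in 19.7% of the 17556 genes tested and the lowest in 20.8%, where any other mouse held at most 11.8% and 11.5%. The differences of the 10 genes are therefore also given without it. The summed markers of excitatory neurons, 5 genes, ranged from 208939 to 223155 in AAV8-irisin and from 190712 in AAV8-GFP mouse 1 to 252000 in AAV8-GFP mouse 3, and none of them was at 0. Summed choroid plexus markers reached 2581 in AAV8-irisin mouse 4, against 905 to 1113 in the other AAV8-irisin mice and 719 to 970.5 in AAV8-GFP mice. Summed red blood cell markers had a median of 1757 in AAV8-irisin (1669 to 3211) and 3774 in AAV8-GFP (1585.5 to 4502). AAV8-GFP mouse 3 was the highest of the 10 mice in summed astrocyte (145232) and microglia markers (15953) and the lowest in oligodendrocyte markers (94990). The part of these cells in the values below was not tested. Summed liver markers stayed between 7.16 and 14.4 in AAV8-irisin and between 7.90 and 14.3 in AAV8-GFP. In bulk tissue, fewer cells of a type and less messenger per cell cannot be told apart.

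All 10 genes were expressed in the hippocampus, over a wide range. Per kilobase of exon, Atf4 averaged 1333 ± 86.7 normalised counts (SD, n = 10 mice) and was the most abundant of the list. Xbp1 followed with 589 ± 44.6 and Herpud1 with 565 ± 26.6 per kilobase, and the ranges of this pair overlapped. Atf6 (342 ± 20.6), Ddit3 (323 ± 80.8) and Sdf2l1 (257 ± 26.3) came next, each overlapping its neighbour. Eif2ak3 (160 ± 11.8), Chac1 (125 ± 9.66), Ern1 (70.5 ± 4.80) and Trib3 (7.16 ± 2.79) stood below, with ranges that did not meet. Per kilobase, the transducers Atf4 and Xbp1 thus stood above the sensors Ern1 and Eif2ak3 that act on them, with the sensor Atf6 between. Exon lengths come from GENCODE M21, which is on mm10, the build in the submitters' processing notes.

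The comparison of the groups asks whether irisin supplied through the circulation altered these programs in the amyloid-bearing hippocampus. None of the 10 genes passed the threshold, an adjusted p under 0.05 by limma with Benjamini-Hochberg adjustment over all genes tested, against a background of 0% of the 17556 genes. The adjusted p-values of the 10 lay between 0.942 and 0.998. At an unadjusted p under 0.05 there were 0 of the 10, against 4.49% of all genes tested. Both groups overlapped in each of the 10, whereas the groups did not overlap in 0.803% of all genes tested. The mean log2 value was higher in AAV8-irisin for 7 genes and lower for 3, beside 50.5% higher among all genes tested. The median of the 10 log2 differences was 0.019, beside 0.00099 over all genes tested, and the sign of Ern1, Atf4 and Chac1 turned when certain single mice were left out, for Chac1 only AAV8-irisin mouse 2. Each log2 difference takes the AAV8-GFP mean of log2(value + 1) from the AAV8-irisin mean.

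**Figure D1:**
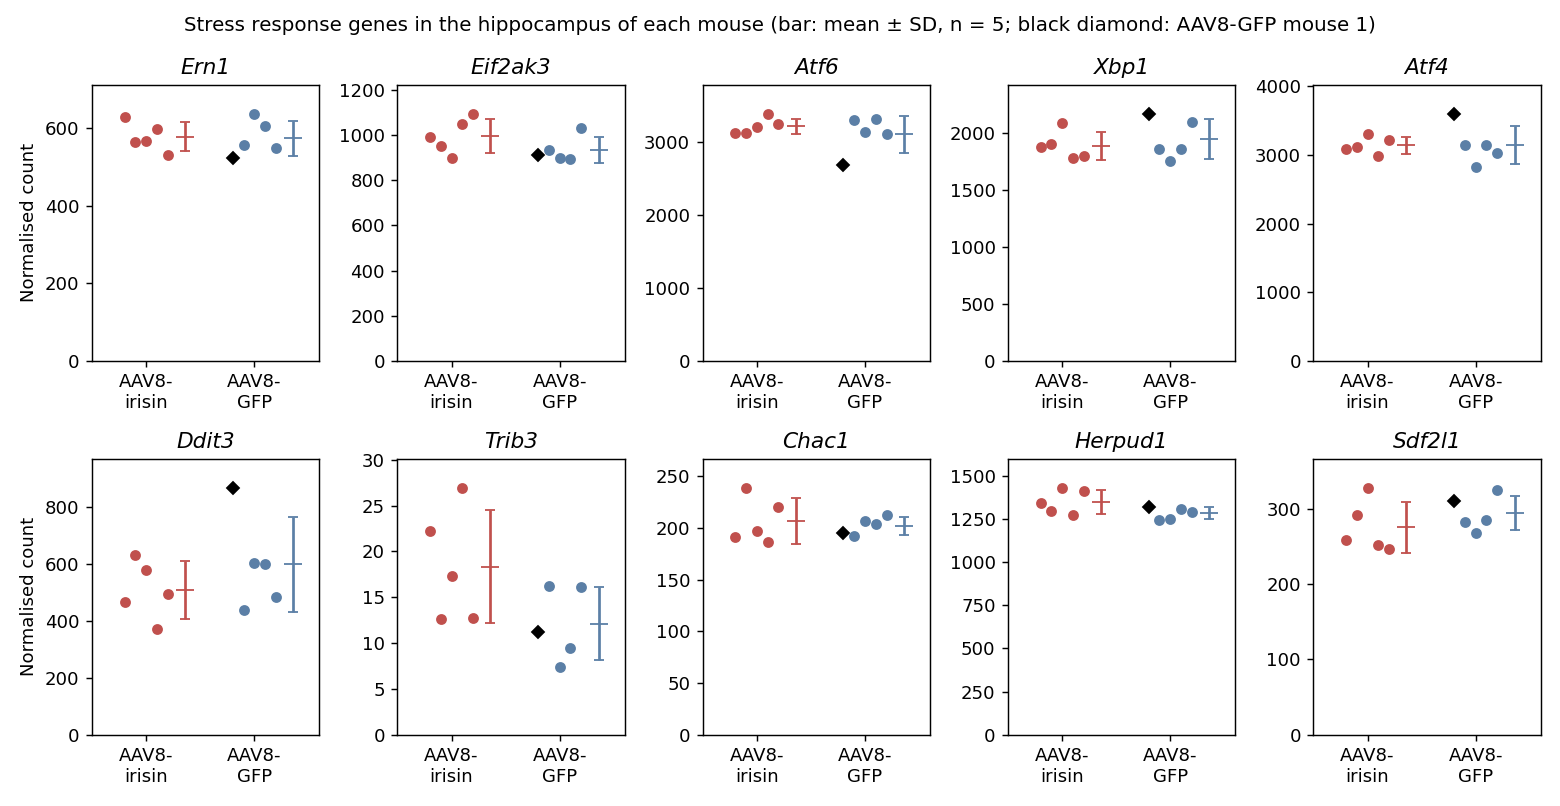
Normalised counts of the 10 genes in each mouse, with AAV8-irisin left of AAV8-GFP, a point per mouse, a bar for the mean ± SD (n = 5) and an axis from 0 in every panel. The groups overlap in every panel, and AAV8-GFP mouse 1, the black diamond, is the highest of 10 for Xbp1, Atf4 and Ddit3 and the lowest for Ern1 and Atf6.

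Among the sensors, Ern1 (chromosome 11, 106394650 to 106487852, minus strand) had nearly the same level in both groups. Its normalised counts in AAV8-irisin mice 1 to 5 were 629, 564, 567, 599 and 531, against 524, 557, 636, 607 and 549.7 in AAV8-GFP mice 1 to 5. The highest and the lowest mouse of the 10 were both in AAV8-GFP, so the AAV8-irisin mice lay wholly inside the AAV8-GFP range. Between groups the log2 values differed by 0.0095 (SE 0.067, exact two-sided permutation p = 0.849), and by −0.023 if AAV8-GFP mouse 1 was dropped.

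Eif2ak3 (chromosome 6, 70844515 to 70905245, plus strand), the PERK gene, had the largest difference of the sensors. Normalised counts in AAV8-irisin were 992, 950.4, 900.0, 1049.6 and 1091, against 909, 935, 899.7, 895 and 1031 in AAV8-GFP. AAV8-irisin mice 4 and 5 lay above the highest AAV8-GFP mouse, and the other three lay among the AAV8-GFP mice. This gave a log2 difference of 0.092 (SE 0.060, exact permutation p = 0.151), or a 1.07-fold level with a 95% interval of 0.974 to 1.17. The log2 difference was 0.083 with AAV8-GFP mouse 1 dropped and 0.059 without AAV8-irisin mouse 5. A transcript of an opposite-strand gene, Gm43292, overlaps its exons, and whether counting used strand is not given in the sources used here.

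Atf6 (chromosome 1, 170704674 to 170867771, minus strand) had 3120.3, 3116, 3193, 3369 and 3235 normalised counts in AAV8-irisin, against 2683, 3292, 3128.7, 3309.5 and 3096 in AAV8-GFP. AAV8-GFP mouse 1 was well below the other 9 mice, and these 9 mixed between groups. The groups differed by 0.051 on the log2 scale (SE 0.053, exact permutation p = 0.50). Dropping AAV8-GFP mouse 1 left 0.00016, with a 95% interval of −0.076 to 0.076.

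Of the transducers, Xbp1 (chromosome 11, 5520659 to 5525893, plus strand), the factor that IRE1alpha splicing activates, had 1872, 1898, 2084, 1778 and 1789.9 normalised counts in AAV8-irisin, against 2158, 1855, 1750.3, 1855 and 2089.5 in AAV8-GFP. A high set of 3 mice, AAV8-irisin 3 with AAV8-GFP 1 and 5, stood above the other 7 mice and held both groups. On the log2 scale the groups differed by −0.041 (SE 0.062, exact permutation p = 0.603), or by −0.0018 once AAV8-GFP mouse 1 was dropped. The table counts whole genes, so spliced and unspliced Xbp1 were not separated.

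Atf4 (chromosome 15, 80255184 to 80257541, plus strand), the shared effector of the eIF2alpha kinases, had 3087, 3114.3, 3302, 2986 and 3220.3 normalised counts in AAV8-irisin, against 3588, 3150.2, 2821, 3151 and 3021 in AAV8-GFP. The AAV8-irisin mice were packed within the AAV8-GFP range, whose ends were AAV8-GFP mice 1 and 3. The means were 3142 ± 122 in AAV8-irisin and 3146 ± 281 in AAV8-GFP (SD, n = 5 each), with a log2 difference of 0.0016 and a 95% interval of −0.12 to 0.12 (exact permutation p = 0.992). It was 0.050 once AAV8-GFP mouse 1 was dropped.

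Ddit3, which encodes the death-linked factor CHOP (chromosome 10, 127290774 to 127296288, plus strand), varied more than the others apart from Trib3, with an SD of 25.0% of its mean over the 10 mice. It had 468, 631, 579, 370.1 and 496 normalised counts in AAV8-irisin, against 867, 438, 603, 602 and 485 in AAV8-GFP. AAV8-GFP mouse 1 was far above all others and AAV8-irisin mouse 4 was the lowest, and the other 8 mice overlapped. The log2 values of the groups differed by −0.22 (SE 0.17, 95% interval −0.58 to 0.14, exact permutation p = 0.389). With AAV8-GFP mouse 1 dropped they differed by −0.074, with an interval of −0.38 to 0.23. Its exons overlap those of Gm4189 and Mars on the opposite strand, and a second annotated record carries the same symbol, so its value is uncertain.

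Among the targets downstream of Atf4, Trib3 (chromosome 2, 152337422 to 152344032, minus strand), a pseudokinase that restrains Akt and Atf4 signalling, had the largest difference of the 10 genes and the lowest level. Its normalised counts were 22.2, 12.6, 17.3, 26.9 and 12.7 in AAV8-irisin, against 11.2, 16.2, 7.40, 9.48 and 16.2 in AAV8-GFP. AAV8-irisin mice 1, 3 and 4 lay above the highest AAV8-GFP mouse, and AAV8-irisin mice 2 and 5 lay within the AAV8-GFP range. The means were 18.4 ± 6.22 in AAV8-irisin and 12.1 ± 3.99 in AAV8-GFP (SD, n = 5 each), a log2 difference of 0.56 (SE 0.29, 95% interval −0.051 to 1.17, exact permutation p = 0.0873, adjusted p = 0.942 by limma). The interval of the fold, 0.965 to 2.25, includes equal levels. Of the 10 mice, 2 were under the value of 10 that the filter uses, both in AAV8-GFP. Its standard error was also the largest of the 10 genes, and the log2 difference was 0.55 with AAV8-GFP mouse 1 dropped.

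Chac1 (chromosome 2, 119351229 to 119354381, plus strand), an enzyme that breaks down glutathione, had 192, 239, 197, 187 and 220.1 normalised counts in AAV8-irisin, against 195, 192, 207, 204 and 212 in AAV8-GFP. AAV8-irisin mice spread to both sides of the AAV8-GFP range, with 2 above and 2 below it, and their SD was 21.8, against 8.44 in AAV8-GFP. Its group means differed by 0.029 in log2 (SE 0.085, exact permutation p = 0.706), by 0.017 with AAV8-GFP mouse 1 dropped and by −0.024 without AAV8-irisin mouse 2. The promoters of Trib3 and Chac1 share the C/EBP-ATF element printed above. AAV8-GFP mouse 1, first of 10 mice in both Atf4 and Ddit3, was rank 8 in Trib3 and rank 7 in Chac1. Nothing is concluded from this 1 mouse, which also stood apart over all genes tested.

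The outputs of the ER branches had differences of opposite sign, neither past the threshold. Herpud1 (chromosome 8, 94386438 to 94395377, plus strand), a membrane protein of ER-associated degradation whose promoter holds both elements shown above, had 1344, 1298, 1429.7, 1274 and 1413 normalised counts in AAV8-irisin, against 1323, 1247, 1252, 1311 and 1293 in AAV8-GFP. AAV8-irisin mice 1, 3 and 5 lay above the highest AAV8-GFP mouse, and the other two lay within its range. Its log2 difference of 0.071 (SE 0.045, 95% interval −0.024 to 0.17, exact permutation p = 0.0952, adjusted p = 0.942 by limma) became 0.082 once AAV8-GFP mouse 1 was dropped. Herpud1 had the smallest spread of the 10 genes, with an SD of 4.70% of its mean over all mice.

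Sdf2l1 (chromosome 16, 17130138 to 17132383, minus strand), an ER partner of the chaperone cycle of BiP, had 259, 293, 328, 252 and 247 normalised counts in AAV8-irisin, against 311, 283, 268, 286 and 325 in AAV8-GFP. AAV8-irisin mice 1, 4 and 5 lay below the lowest AAV8-GFP mouse, while AAV8-irisin mouse 3 was the highest of all 10. The means were 276 ± 34.1 in AAV8-irisin and 295 ± 23.0 in AAV8-GFP (SD, n = 5 each), a log2 difference of −0.10 (SE 0.090, exact permutation p = 0.294) that became −0.080 once AAV8-GFP mouse 1 was dropped. Leaving out AAV8-irisin mouse 3 gave −0.16, and leaving out AAV8-irisin mouse 5 gave −0.063. AAV8-irisin mouse 4, with the highest choroid plexus markers, had the second lowest Sdf2l1, and the part of this tissue in the value was not tested.

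**Figure D2:**
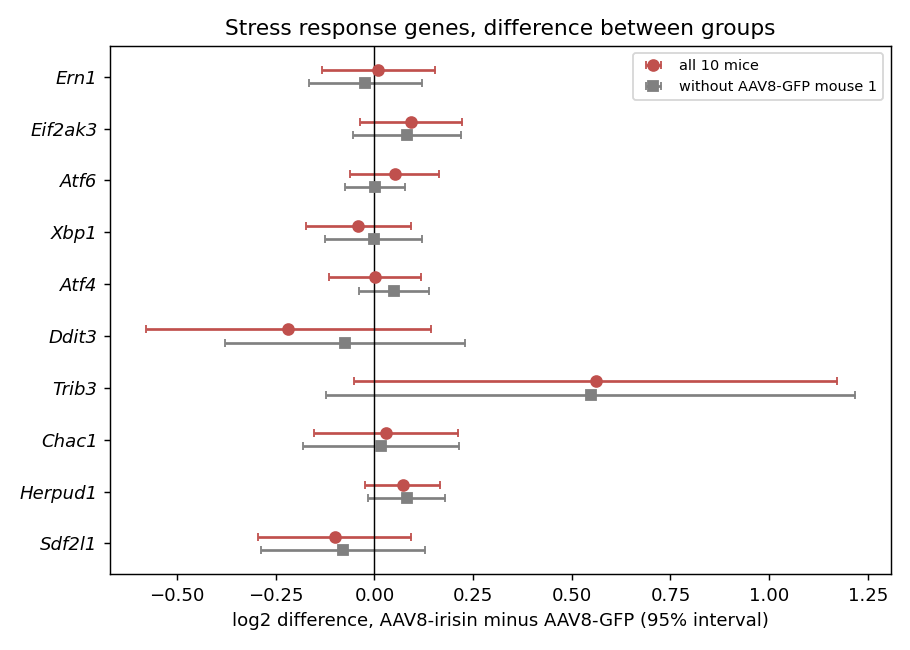
Log2 difference of each gene, AAV8-irisin minus AAV8-GFP, with its 95% interval from limma, for all 10 mice (red circles) and without AAV8-GFP mouse 1 (grey squares). Every interval crosses 0, and Trib3 has the widest, from −0.051 to 1.17 with all mice.

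The wider pathways were read from 7 lists of other genes, 138 symbols in all, of which 134 were in the deposited table and 131 were tested. None of the 131 passed in either direction, against 0% of all genes tested, and 5 had an unadjusted p under 0.05, where 4.49% of all genes did. For the counts of direction that follow, 50.5% of all genes tested had a higher mean in AAV8-irisin. Among 24 tested targets of ATF4 and CHOP, 12 had a higher and 12 a lower mean log2 value in AAV8-irisin, and their median difference was −0.00027. Asns, the asparagine synthetase that amino acid shortage induces, had 2873 ± 98.4 normalised counts in AAV8-irisin and 2865 ± 50.6 in AAV8-GFP. Ppp1r15a (GADD34), which directs the phosphatase of eIF2alpha, had 382 ± 27.0 in AAV8-irisin and 401 ± 80.6 in AAV8-GFP, and its exons overlap Tulp2 on the opposite strand. Ddit4, an inhibitor of mTOR signalling, had 2085 ± 157 in AAV8-irisin and 2020.0 ± 267 in AAV8-GFP. Atf3, a stress-induced factor, had 41.6 ± 10.1 in AAV8-irisin and 43.9 ± 5.36 in AAV8-GFP. The smallest p-values of the list belonged to Trib1, a relative of Trib3, with a log2 difference of 0.18, and the amino acid transporter Slc7a3, with 0.13.

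Of the 20 tested cytosolic aminoacyl-tRNA synthetases, many of them ATF4 targets, 12 had a higher and 8 a lower mean; the median difference was 0.0040, and −0.0017 after quantile normalisation. The counts also turned with single mice left out, to 6 higher and 14 lower without AAV8-GFP mouse 2 (median −0.0071) and to 8 and 12 without AAV8-irisin mouse 1 (median −0.0081). The log2 differences were 0.12 for Cars and −0.038 for Wars, the pair of smallest p. A list of 15 tested genes around eIF2alpha held kinases, a phosphatase subunit, and subunits of eIF2 and its exchange factor eIF2B. It also held Nck1 (log2 difference 0.041), Dnajc3 (0.081) and Impact (0.089), which are none of these. In this list 11 genes had a higher mean, Nck1, Dnajc3 and Impact among them. The median was 0.039, and 0.020 without AAV8-irisin mouse 5. Dnajc3 was counted again in the chaperone list below. Impact, a protein that curbs the amino acid sensor GCN2, had 8020 ± 278 normalised counts in AAV8-irisin and 7538 ± 205 in AAV8-GFP, with 4 AAV8-irisin mice above the whole AAV8-GFP range (log2 difference 0.089, adjusted p = 0.942 by limma). Eif2b4, a subunit of eIF2B, had 895 ± 91.6 in AAV8-irisin and 998 ± 80.7 in AAV8-GFP, with 4 AAV8-irisin mice below the whole AAV8-GFP range, and its exons overlap Snx17 on the opposite strand.

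ER chaperones and folding enzymes were the list with the most lower means, 16 of 23, beside 8688 of the 17556 genes tested. Their median log2 difference was −0.020, beside 0.00099 over all genes tested. With single mice left out the median lay between −0.043, without AAV8-irisin mouse 3, and −0.0070, without AAV8-GFP mouse 5, where 13 of 23 were lower. AAV8-irisin mouse 4, the library with the highest choroid plexus markers, held the lowest value of the 10 mice in 9 of these 23 genes, or 39.1%, beside 10.04% of all genes tested. Without it 14 of 23 were lower, with a median of −0.016, and the part of that tissue in the list was not tested. Hspa5 (BiP) had 6078 ± 636 normalised counts in AAV8-irisin and 6138 ± 457 in AAV8-GFP, and Hsp90b1 (GRP94) had 8213 ± 482 in AAV8-irisin and 8237 ± 230.1 in AAV8-GFP. Calr, the chaperone calreticulin, had 9308 ± 1032 in AAV8-irisin and 9927 ± 349 in AAV8-GFP, with 2 AAV8-irisin mice below the whole AAV8-GFP range and a log2 difference of −0.099. Log2 differences were −0.12 for Creld2 (−0.053 without AAV8-GFP mouse 1) and −0.079 (−0.046) for Manf, a secreted ER stress protein whose exons overlap other genes on both strands. They were 0.082 for Dnajb9 and 0.081 for Dnajc3, both co-chaperones and the pair of smallest p. Of 21 tested genes of ER-associated degradation, 13 had a higher mean, with a median of 0.0082.

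Erlec1, a lectin that hands misfolded glycoproteins to degradation, was the 1 gene of the 131 whose groups did not overlap, or 0.763%, beside 0.803% of all genes tested. It had 1393 ± 51.0 normalised counts in AAV8-irisin and 1268 ± 35.8 in AAV8-GFP, with every AAV8-irisin mouse above each AAV8-GFP mouse, a log2 difference of 0.14 (SE 0.041, exact permutation p = 0.00794, the smallest the design can give, and adjusted p = 0.942 by limma). The log2 difference of Ube2g2, a conjugating enzyme of the same route, was −0.079. Among 19 sensor relatives, proteases and translocon genes 8 had a higher mean and the median was −0.026, or 0.0070 once AAV8-GFP mouse 1 was dropped. Ssr1, a translocon-associated subunit, had a log2 difference of 0.085, and Atf6b, a paralog of Atf6, one of −0.084. Of 10 genes of stress-linked cell death 4 had a higher mean and the median was −0.018, or 0.024 without AAV8-GFP mouse 1, with log2 differences of 0.16 for Trp53inp1 and −0.062 for Dapk3. Exons of Hsp90b1, Cars, Ube2g2, Dnajb9, Pdia6, Ssr2, Shmt2 and Dapk3 also overlap those of other annotated genes, which leaves these values uncertain. Of 28 named pathway genes, dropping AAV8-GFP mouse 1 turned the sign of 1, Ppp1r15a (−0.053 with all mice, 0.055 without it), and moved 13 others by more than 1.5 times, among them Ddit4 (0.052 and 0.12), Cars (0.12 and 0.18) and Ssr1 (0.085 and 0.056). Erlec1 had 0.12 without it, and the smallest adjusted p of the 28 was then 0.983 by limma.

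**Figure D3:**
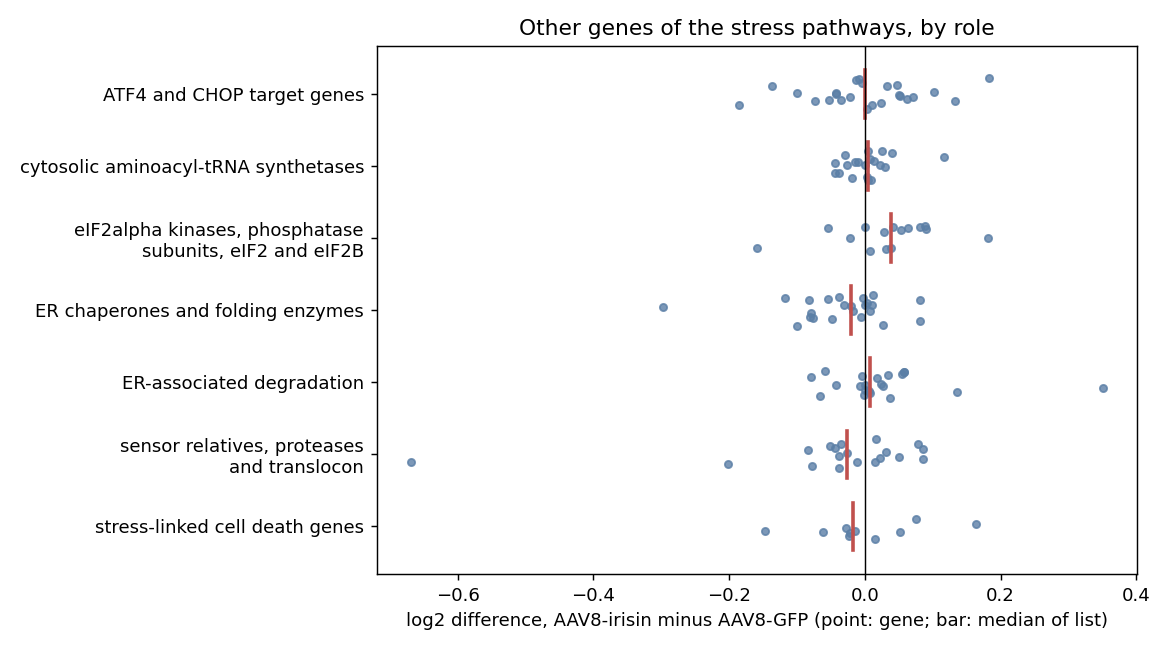
Log2 differences, AAV8-irisin minus AAV8-GFP, of the 131 other tested genes of the stress pathways, a point per gene, grouped by role, with a red bar at the median of each list. All 7 medians lie between −0.026 and 0.039.

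Across the 10 mice the 10 genes did not move as a block. Of the 45 pairs, 22 had a positive Pearson r on log2(value + 1), the median r was −0.0079, and 0 pairs passed an adjusted p of 0.05 over the 45, with 7 at an unadjusted permutation p under 0.05. The closest pair was Xbp1 and Sdf2l1, with r = 0.879 (permutation p = 0.00112, adjusted p = 0.0504) and Spearman rho = 0.806 (permutation p = 0.00705, adjusted p = 0.162). Without the 2 mice farthest from the median of Xbp1, AAV8-GFP mice 1 and 5, r was 0.859, with group means removed it was 0.882, and with AAV8-GFP mouse 1 alone dropped it was 0.902. The adjusted p missed the threshold with all mice and in each of these subsets.

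The relations that followed by size of r were inverse. Atf6 and Ddit3 had r = −0.786 (permutation p = 0.00988, adjusted p = 0.209) and rho = −0.552 (permutation p = 0.105), but r was −0.131 without AAV8-irisin mouse 4 and AAV8-GFP mouse 1, the 2 mice farthest from the median of Atf6, so that relation rests on them. Ern1 and Atf4 had r = −0.703 (permutation p = 0.0173, adjusted p = 0.209) and rho = −0.588 (permutation p = 0.0815), and r = −0.589 without AAV8-irisin mouse 1 and AAV8-GFP mouse 3. Ddit3 and Trib3, a pair added after its values were seen, had r = −0.697 (permutation p = 0.0255, adjusted p = 0.214) and rho = −0.806 (permutation p = 0.00719, adjusted p = 0.162). Its r was −0.649 without the 2 mice farthest from the median of Ddit3 and −0.781 with AAV8-GFP mouse 1 alone dropped. The values of a pair come from the same library, so anything that differs between libraries enters both.

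**Figure D4:**
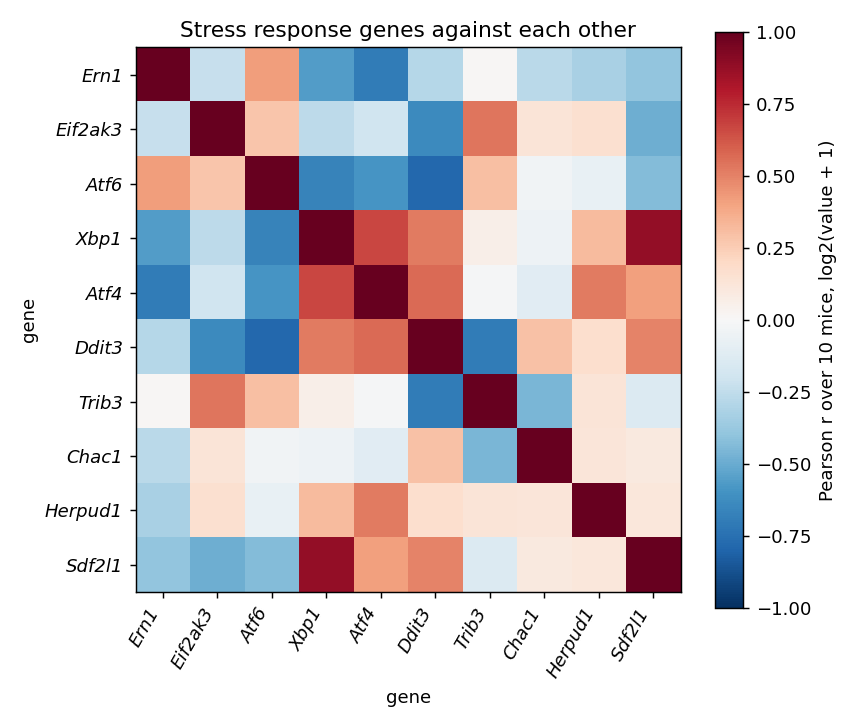
Pearson r between each pair of the 10 genes over 10 mice on log2(value + 1), from −1 (blue) to 1 (red). The strongest positive cell off the diagonal is Xbp1 with Sdf2l1 at 0.879, and the strongest negative is Atf6 with Ddit3 at −0.786.

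Sdf2l1 had a positive r with most ER chaperones. Its r was above 0 with 20 of 23 chaperone and folding genes, beside 8792 of the 17555 other genes tested. The median r was 0.458 with these 23, beside 0.00099 with all genes tested. For Herpud1 the median r with the same 23 genes was 0.0899, with 15 positive, and for Xbp1 it was 0.369, with 17 positive. Other members ranged from 0.215 for Atf4, with 16 positive, down to −0.196 for Eif2ak3, with 6 positive. The difference between these medians was not tested. The mice are the same 10, so the r of the 23 genes are not separate results. AAV8-irisin mouse 4 was the lowest in 9 of the 23 and second lowest in Sdf2l1, and medians without it were not computed. Among the 131 pathway genes, those with the highest r to Sdf2l1 were Atf6b at 0.858, Pdia6, a disulfide isomerase, at 0.826, Ssr2 at 0.821, Creld2 at 0.770 and Calr at 0.753. The ERSE sites of Pdia6, Creld2 and Calr were printed above because these chaperone genes stood in this ranking. Matches in Atf6b and Ssr2 are not given here, and a link between the ERSE and likeness to Sdf2l1 was not tested. The promoter of Sdf2l1 itself held no match in its 300 bases. The adjusted permutation p-values of these r, over 131 genes, lay between 0.193 and 0.293, Spearman rho lay between 0.673 and 0.891 with adjusted permutation p of 0.147 to 0.456, and r without the 2 mice farthest from the median of Sdf2l1 lay between 0.631 and 0.877. For Herpud1 the highest r were 0.700 with Dnajb11, 0.663 with Shmt2, 0.594 with Trib1, 0.591 with P4hb and 0.568 with Erlec1, each with an adjusted permutation p of 0.865 over the same 131 genes.

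**Figure D5:**
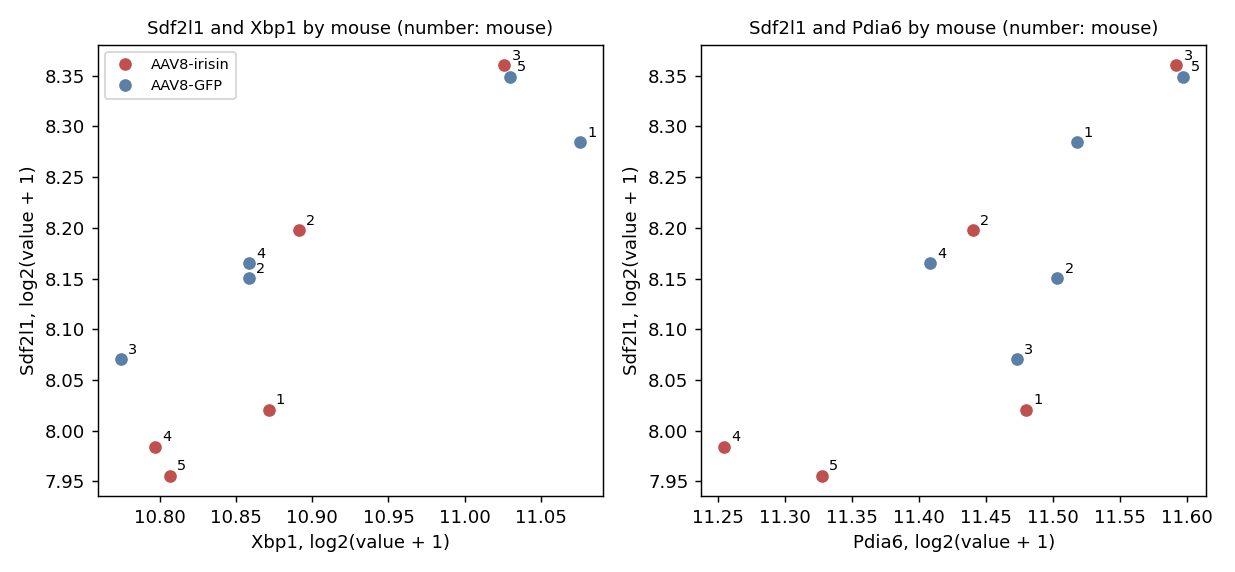
Sdf2l1 against Xbp1 (left) and against Pdia6 (right) in each mouse, log2(value + 1) on both axes, with AAV8-irisin in red and AAV8-GFP in blue and the mouse number beside each point. AAV8-irisin mouse 3 and AAV8-GFP mouse 5 have the highest Sdf2l1, and AAV8-irisin mice 1, 4 and 5 lie below every AAV8-GFP mouse in Sdf2l1, so the lower end of that axis holds AAV8-irisin mice alone.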

How the data were processed

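Per the labels' protocols, messenger RNA of frozen hippocampus was captured on oligo(dT) beads and sequenced from NEBNext Ultra libraries. The submitters' processing notes name bcl2fastq 2.17, DESeq2 and mm10. No source used here gives the aligner, counter or annotation. The deposited values are the authors' normalised counts, a non-negative signal for each gene in each library. Low values were whole multiples of 1 read, within 0.1 reads, in only 46.3% to 68.5% of cases, so reads were not recovered and count tests were not run.

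Groups followed the labels. The fit took genes reaching 10 normalised counts in 5 or more libraries, 17556 in all with all 10 members, with limma 3.58.1 in R 4.3.3 on log2(value + 1) with a mean-dependent prior variance, two-sided. Exact permutation tests used all 252 assignments of the mice, and correlations 100000 resamples (SciPy 1.17.1). The titles name separate mice. The limma p-values set the difference between groups against the spread between mice, drawn towards that prior variance. This fit was first run on simulated data, with changes placed only in genes of a higher mean than Trib3. The outcome is not given here and does not bear on the members. Lists were described by counts and medians. The named genes are the members, the 2 genes of smallest p of each list, 9 pathway genes fixed by name, and the pairs and likest genes by r. Members and lists were chosen with earlier results of these data known. Promoters were matched by symbol. In the deposited table, 26 symbols were dates and are not named.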

Additional observations from a re-analysis of the deposited data

Results flagged for a closer look

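Of 64 groups of 5 mice checked, 2 per gene over 32 named genes, 2 held a mouse far from the others by Dixon's criterion, and chance flags about 1 in 20 groups. Dnajb9 was 1361 normalised counts in AAV8-irisin mouse 1, above the 1245 to 1273 of the other AAV8-irisin mice. Ssr1 was 4564 in AAV8-GFP mouse 1, below the 4957 to 5106 of the other AAV8-GFP mice. None of the 10 members met the criterion in either group.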

How the results depend on the processing

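No member passed the threshold under any of the 18 alternatives, and none of the pairs did under the 3 tried. Without a filter on low values 1 of 26538 genes passed, Gm49383, named after its values were seen, at 0 in all AAV8-irisin mice and 2.66 to 13.9 in AAV8-GFP; under the other 17 the count was 0. The sign of Ern1 turned with array quality weights (−0.0055) and that of Atf4 with quantile normalisation (−0.0072). With each mouse left out in turn, log2 differences ranged from −0.023 to 0.047 for Ern1, −0.037 to 0.050 for Atf4, −0.024 to 0.064 for Chac1, −0.32 to −0.074 for Ddit3, 0.41 to 0.67 for Trib3, 0.059 to 0.13 for Eif2ak3, 0.00016 to 0.076 for Atf6, −0.078 to −0.0018 for Xbp1, 0.051 to 0.093 for Herpud1 and −0.16 to −0.063 for Sdf2l1. List medians ranged from −0.016 to 0.014 for ATF4 and CHOP targets and −0.0081 to 0.0096 for synthetases. For the list around eIF2alpha they ranged from 0.020 to 0.057, and for chaperones from −0.043 to −0.0070. They ranged from 0.0072 to 0.025 for ER-associated degradation, −0.035 to 0.0070 for sensor relatives and translocon and −0.041 to 0.024 for cell death genes. The sign of Ern1 turned without AAV8-irisin 1 or 4 or AAV8-GFP 1, 2 or 5, that of Atf4 without AAV8-irisin 3 or 5 or AAV8-GFP 3 or 5, and that of Chac1 without AAV8-irisin 2. The cause was not tested. The other 7 members kept their sign in all 18. With the mouse number as a replicate block 0 genes passed; same-numbered mice are separate animals, and the correlations of their deviations lay between −0.089 and 0.030, so the numbers do not pair them. Leaving AAV8-GFP mouse 1 out of the pairs was chosen after seeing the data. Depth behind single values is unknown, and Trib3 is limited by its low level.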
